A study of Mus musculus with 4 samples.

Results

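The expression of 8 genes of arginine and nitric oxide metabolism, a listed set matched by symbol, was followed across the cells of mouse pancreatic tumours, and all 8 were found among the 31053 genes counted. They encode both arginases (Arg1, Arg2), the inducible nitric oxide synthase (Nos2), a transporter that brings arginine into the cell (Slc7a2), the pair of enzymes that rebuild arginine from citrulline (Ass1, Asl), the first enzyme of polyamine synthesis (Odc1) and the first enzyme of the pathway to tetrahydrobiopterin (Gch1), a cofactor that nitric oxide synthases need. Arginine is the substrate of both arginase, which gives ornithine and urea, and nitric oxide synthase, which gives nitric oxide and citrulline. Myeloid cells in tumours are known for using arginine by either route, which can take it away from T cells, and nitric oxide together with superoxide forms peroxynitrite, a source of nitrated proteins. In textbook descriptions Arg1 and Nos2 mark opposite macrophage states, the first driven by interleukin 4 signalling and the second by interferon gamma and bacterial products.

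The mice were C57BL/6 animals with orthotopic B6KPC3 tumours, grown in the pancreas from an implanted tumour cell line. Treatment began when tumours were 7 days old and lasted 7 days. Animals received either vehicle (1% carboxymethyl cellulose in water) or AT38 at 30 mg/kg per day in that vehicle, by injection into the peritoneum. AT38 is given in the labels by its code name alone. Each of the 4 libraries, vehicle 1, vehicle 2, AT38 1 and AT38 2, was a pool of 4 mice sorted for CD45, the general leukocyte surface marker, and each p-value rests on the spread between such pools. The series title names nitrosative stress, and the comparison asks how these enzymes differ between treated and untreated tumours.

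The libraries held 24294215 to 34386076 UMIs, the counts of single RNA molecules. After filtering, 14192 of 18001 barcodes were kept, with 2906 to 4708 cells per library and a median of 3000.5 to 4144 UMIs per cell, and any pair of libraries shared between 0 and 8 barcodes. Cells were sorted into 27 clusters without using the 8 enzymes, and clusters were named from marker genes. This gave 4500 neutrophils, 1633 mononuclear phagocytes (1138 macrophage-like and 495 monocyte-like cells), 1604 dendritic cells, 2058 T cells, 1238 B cells, 405 NK cells, smaller groups, and 2325 cells in unnamed clusters. All 10 of 10 neutrophil markers were detected in at least 10% of neutrophils, and all 10 of 10 macrophage markers in macrophage-like cells. The classes were not clean, since 6 of 6 T cell markers passed the same cut in macrophage-like and in dendritic cells. Summed, these markers were 576 to 1093 CPM in macrophage-like cells against 4083 to 4685 CPM in T cells. Macrophage-like cells also passed for 8 of 10 neutrophil markers. The part of doublets and free RNA in this was not tested. Among the unnamed was a shallow cluster of 407 cells with macrophage, neutrophil and T cell genes together, and a cluster of 1081 cells led by Cd8a. Levels below are UMIs of a gene per 1000000 UMIs of a cell class (CPM), as mean ± SD over the 4 libraries, and each is compared between cell classes for the same gene.

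Arg1, the cytosolic arginase (GRCm38 chromosome 10, 24915221 to 24927484, minus strand), was highest in 2 kinds of cell, macrophages and a few innate lymphocytes. In macrophage-like cells it stood at 1912 and 1708 CPM with vehicle and at 905 and 566 CPM with AT38, a mean of 1273 ± 641. ILC2-like cells, innate lymphocytes that make type 2 cytokines and were led here by Il5 and Areg, reached 747 and 428 CPM with vehicle and 1296 and 1010 CPM with AT38, a mean of 870 ± 371. The ranges of these classes overlapped, and monocyte-like cells at 104 ± 75.0 lay below both without overlap. Mature dendritic-like cells had 45.8 ± 39.5 CPM, neutrophils 23.3 ± 7.72, T cells 17.5 ± 7.73 and B cells 4.23 ± 3.21, and from the monocyte-like cells to the T cells each neighbour in this order overlapped the next. Mononuclear phagocytes held 90.9% of all Arg1 UMIs in kept cells, and the 51 ILC2-like cells held 1.06% with 235 UMIs. The shallow unnamed cluster had 336 ± 160 CPM.

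Droplet libraries carry free RNA, so a low Arg1 level can come from lysed macrophages, and the complement genes C1qa, C1qb and C1qc were used as a yardstick because macrophages make them. The macrophage-like cells gave 71.4 and 46.7 Arg1 UMIs per 100 C1q UMIs with vehicle and 18.1 and 9.97 with AT38. The ILC2-like cells gave 43 Arg1 UMIs beside 1 C1q UMI in vehicle 1, 19 beside 10 in vehicle 2, 93 beside 4 in AT38 1 and 80 beside 2 in AT38 2. Their ratio of Arg1 to C1q was above that of macrophages in 4 of 4 libraries. Mature dendritic-like cells gave 79.4 and 62.3 Arg1 UMIs per 100 C1q UMIs with vehicle and 17.3 and 15.6 with AT38. That was above the macrophages in vehicle 1, vehicle 2 and AT38 2 and below them in AT38 1. The part of free RNA in their Arg1 was not tested. In neutrophils the ratio was 38.6 and 22.7 with vehicle and 12.5 and 25.9 with AT38, below that of macrophages in 3 of the 4 libraries. Arg1 was 82.9, 67.2, 41.8 and 45.5 UMIs per 1000 neutrophils against 81.2, 110, 67.2 and 44.1 UMIs per 1000 T cells (vehicle 1, vehicle 2, AT38 1, AT38 2).

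Arg2, the mitochondrial arginase (chromosome 12, 79130777 to 79156301, plus strand, overlapping Gm48780 and Vti1b on the opposite strand), was a neutrophil gene in these tumours. Neutrophils had 349 and 325 CPM with vehicle and 251 and 236 CPM with AT38, a mean of 290 ± 55.2, and held 78.8% of its UMIs. Monocyte-like cells at 50.8 ± 27.4 and macrophage-like cells at 28.9 ± 6.16 overlapped each other and stayed below the neutrophil range. All other named classes had mean levels of 10.1 CPM or less. Within the neutrophils Arg2 followed the clusters: it was 499 ± 53.1 CPM in the cluster led by Rdh12 and Asprv1, where Arg2 was itself among the 10 leading genes, 321 ± 27.5 in the one led by Il23a and Clec4e, 285 ± 62.9 in the one led by Rsad2 and Hspa1a, and 120 ± 25.0 in the one led by Siglecf and Rcan1. The first and the last of these differed without overlap between any libraries.

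Nos2 (chromosome 11, 78920787 to 78960254, plus strand) was rare, with macrophages first. Macrophage-like cells had 46.7 and 14.1 CPM with vehicle and 23.9 and 12.4 CPM with AT38, a mean of 24.3 ± 15.8, and mononuclear phagocytes held 76.9% of its UMIs. Neutrophils had 7.52 ± 4.58 CPM and held 17.9%. The ranges of these 2 classes overlapped. Monocyte-like cells had only 2 Nos2 UMIs, T cells 3 and B cells 1, against 351 in macrophage-like cells. Still, only 6.85% of the macrophage-like cells held a Nos2 UMI, so most cells of either phagocyte type had none. No Nos2 UMI was counted in cDC1-like, cDC2-like, mast or basophil-like or ILC2-like cells, and a count of 0 there allows up to 0.693, 0.263, 3.53 and 11.9 CPM.

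Nos2 UMIs were concentrated in few cells. In mononuclear phagocytes 79 of 1633 cells held all 353 UMIs, the top 5 cells held 37.1% of them, and 1 cell of vehicle 1 had 59 of that library's 167. The top 5 cells held 7.15% of the Arg1 UMIs of the same class, but there 717 cells held Arg1 against 79 with Nos2. Over the 4 libraries together, the top 10% of the cells with Nos2 held 46.7% of its UMIs. For Arg1 that value was 48.2%. By this measure Nos2 was not more concentrated than Arg1 among the phagocytes that held each gene. Among neutrophils the cluster led by Rsad2 and Hspa1a, with interferon and heat shock genes, had 43.0 and 63.0 Nos2 CPM with vehicle and 9.28 and 21.3 CPM with AT38, resting on 16, 18, 2 and 5 UMIs. In the cluster led by Siglecf and Rcan1, AT38 2 had 22 Nos2 UMIs and the other libraries 1 or 2, and 1 neutrophil of AT38 2 alone held 17 UMIs.

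Slc7a2, the inducible cationic amino acid transporter that imports arginine (chromosome 8, 40862396 to 40922308, plus strand, overlapping Gm26584 on the opposite strand), shared the macrophage pattern. Macrophage-like cells had 144 and 173 CPM with vehicle and 148 and 188 with AT38, a mean of 163 ± 21.3, above every other named class. Epithelial-like cells followed at 28.0 ± 19.5 CPM, and monocyte-like cells had 8.39 ± 6.39. Mononuclear phagocytes held 80.3% of its UMIs. The steep step from monocyte-like to macrophage-like cells was thus seen in Arg1, Nos2 and Slc7a2 alike, without overlap of the libraries in each.

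Ass1, argininosuccinate synthase (chromosome 2, 31470207 to 31520672, plus strand), and Asl, argininosuccinate lyase (chromosome 5, 130011258 to 130029247, minus strand), act one after the other to turn citrulline back into arginine, and both were highest in mature dendritic-like cells. These cells, marked by Ccr7, Fscn1 and Ccl22, had 156 ± 28.1 CPM of Ass1 and 67.0 ± 7.61 CPM of Asl. For Asl they lay above all other classes with 20 cells or more per library, without overlap. For Ass1 they lay above T cells at 81.6 ± 7.45, macrophage-like cells at 78.2 ± 11.2 and cDC2-like cells at 71.0 ± 9.31, which overlapped one another. Among T cells the cluster led by Foxp3 stood apart for Ass1, at 186 ± 31.2 CPM. Neutrophils had almost none, 2.58 ± 0.852 CPM of Ass1 from 31 UMIs in 4500 cells, and 12.4 ± 3.07 CPM of Asl. So the class richest in Arg2 and next to macrophages in Nos2 was close to the lowest for the recycling enzymes.

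Odc1, ornithine decarboxylase (chromosome 12, 17544794 to 17551505, plus strand, holding the small nucleolar RNA gene Gm22748), was highest in ILC2-like and T cells. ILC2-like cells had 1572 ± 318 CPM and T cells 1201 ± 74.3, and the T cell cluster led by Foxp3 reached 1978 ± 143. The ILC2-like and T cell ranges did not overlap. cDC2-like cells had 657 ± 106, macrophage-like cells 426 ± 33.4, B cells 344 ± 53.4, NK cells 288 ± 51.8, monocyte-like cells 257 ± 67.6 and neutrophils 145 ± 22.4, so the other lymphocyte classes did not share the high level. Of all Odc1 UMIs, dendritic cells held 27.6%, T cells 23.6% and the unnamed clusters 21.4%. The unnamed include the cluster of 1081 cells led by Cd8a, which is not counted among the T cells here. The T cells lay above cDC2-like cells and cDC2-like above macrophage-like cells without overlap.

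Gch1, GTP cyclohydrolase (chromosome 14, 47153895 to 47189413, minus strand, overlapping the pseudogenes Gm49134 and Gm18811), was highest in a class that had no Nos2 UMI. Mast or basophil-like cells had 364 ± 128 CPM, with 72.2% of 108 cells holding a UMI. Neutrophils at 143 ± 20.1, B cells at 117 ± 7.58, monocyte-like cells at 104 ± 15.3 and T cells at 104 ± 20.8 came next. Macrophage-like cells, the main Nos2 class, had 70.7 ± 9.71 CPM, below the neutrophils without overlap. The cofactor gene and the synthase were thus not ordered alike across classes.

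**Figure D1:**
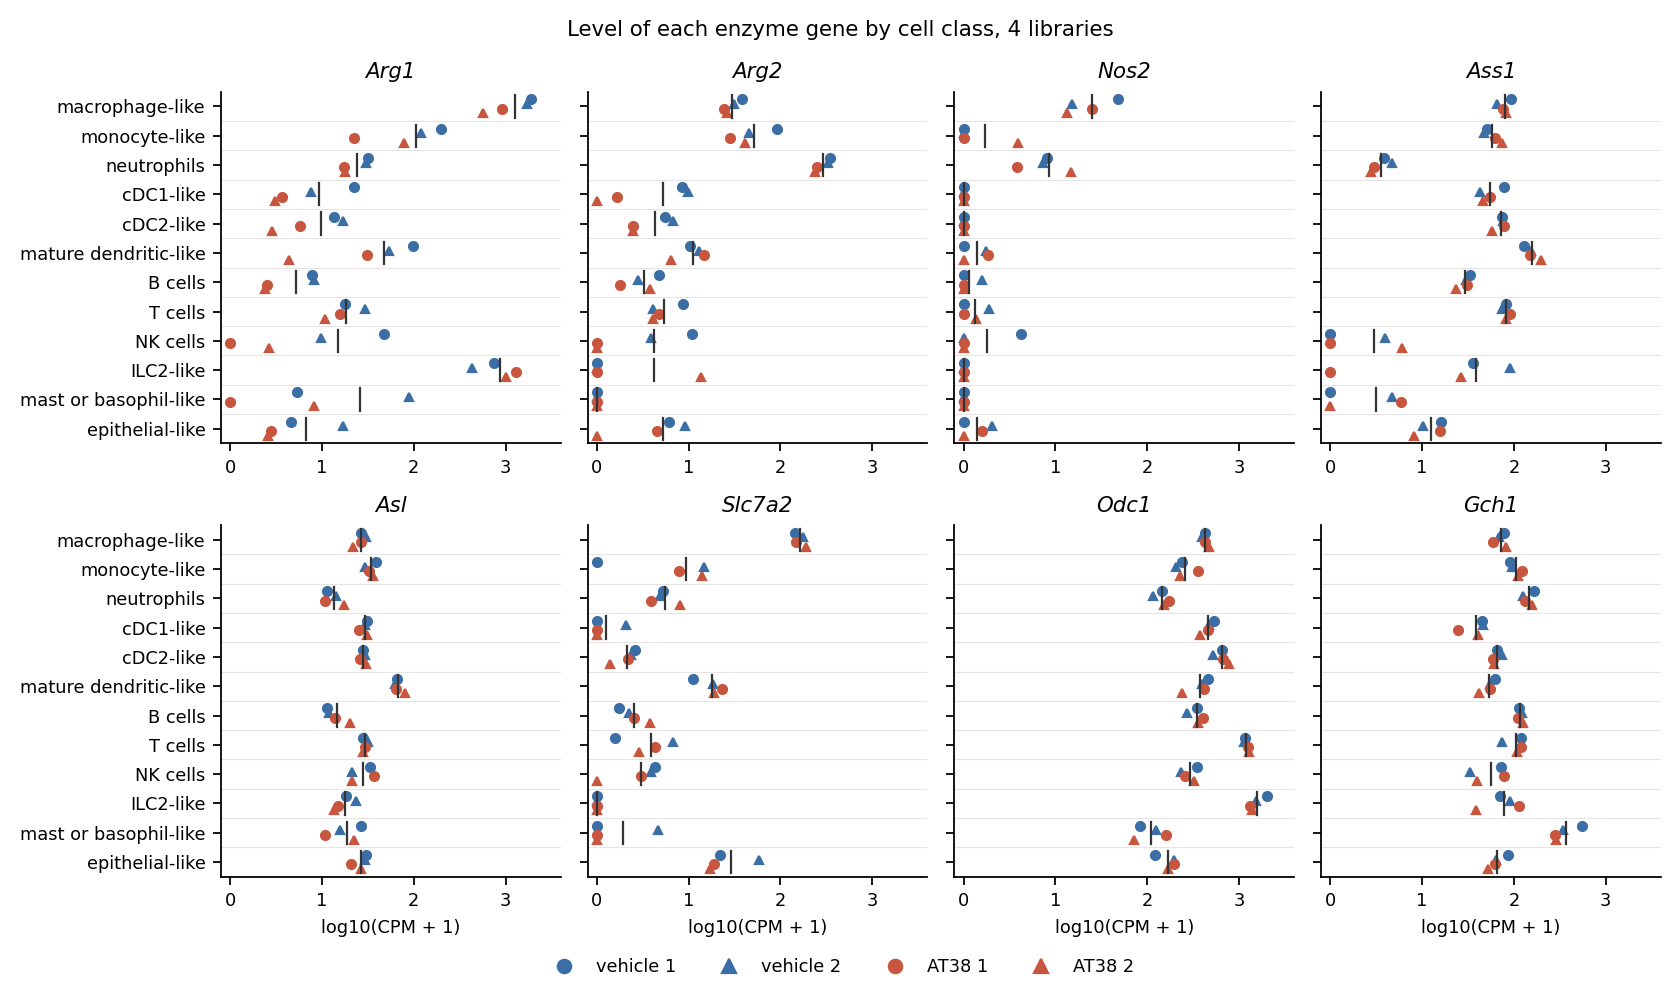
Level of each of the 8 genes, as log10(CPM + 1), in 12 cell classes; circles and triangles are the libraries of a group, blue vehicle and red AT38, and the vertical line is the mean of the 4 libraries. Arg1 stands out in macrophage-like and ILC2-like cells, Arg2 in neutrophils, Slc7a2 in macrophage-like cells, and Odc1 in T and ILC2-like cells.

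The genes most like each enzyme in level were found from Pearson's r of log2(CPM + 1) over 28 sums (7 classes in each of 4 libraries, which share their libraries and the class contrast), among 10640 genes. Arg1 was nearest to Pf4 (r = 0.919), F13a1 and Trem2, which mark macrophages and monocytes, and Arg2 to Clec4e (r = 0.980), Fpr2 and Hdc, all abundant in neutrophils. Nos2 was nearest to Tfec (r = 0.900), F10 and F7, Slc7a2 to Plcb1 (r = 0.927), Itgb5 and Gab1, and Odc1 to Ctla4 (r = 0.951), Stat5a and Sdf4. Ass1 was nearest to Got1 (r = 0.895), Lpcat1 and Dpp4, Asl to Spsb1 (r = 0.878), Ywhah and Insl6, and Gch1 to Xylt1 (r = 0.825), Irak3 and Tmem154. Within the 8, Arg1 and Nos2 were the most alike (r = 0.818).

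In single phagocytes most cells with Nos2 also had Arg1. Of 1633 mononuclear phagocytes, 717 had an Arg1 UMI, 79 a Nos2 UMI and 72 had both, so 91.1% of Nos2 cells also had Arg1 against 43.9% of the class. Of the 7 Nos2 cells without Arg1, 4 were in vehicle 2. All 20 of 20 cells with 5 or more Nos2 UMIs had 5 or more Arg1 UMIs, 7, 5, 6 and 2 of them in vehicle 1, vehicle 2, AT38 1 and AT38 2. The median of Arg1 in cells with Nos2 was 51, 45, 52 and 3 UMIs in these libraries, 47 over all, so AT38 2 with 9 such cells differed from the rest, and over all cells without Nos2 the median was 0. The reverse did not hold, since 83 of the 118 cells with 50 or more Arg1 UMIs had no Nos2 UMI.

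**Figure D2:**
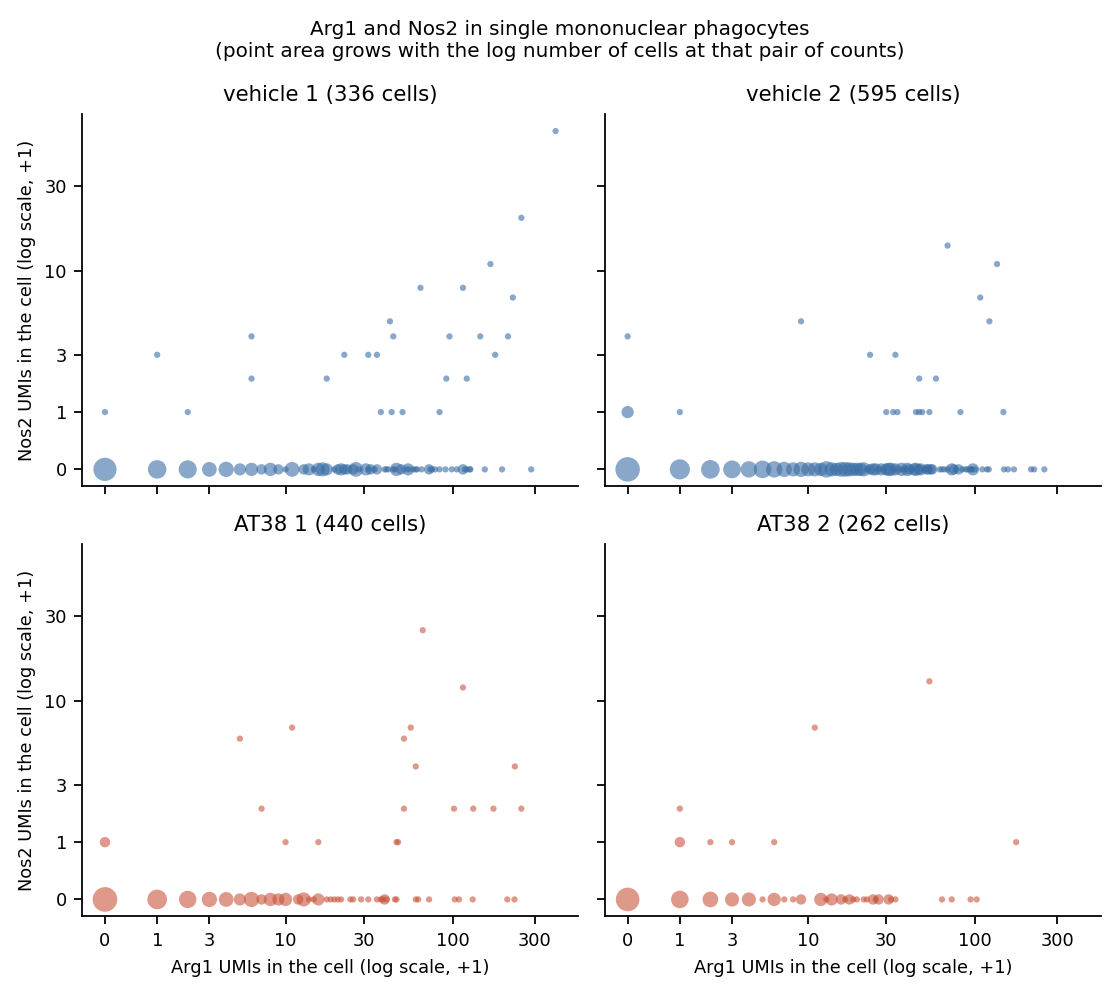
Arg1 UMIs (x axis) and Nos2 UMIs (y axis) in each mononuclear phagocyte, on log scales with 1 added, by library; larger points stand for more cells at the same pair of counts. All 20 cells with 5 or more Nos2 UMIs lie at 5 or more Arg1 UMIs, and most cells with Arg1 lie on the line of 0 Nos2 UMIs.

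Depth moves such counts, because cells with Nos2 had a median of 14193 UMIs against 8357 in the class. With every cell thinned to 1000 UMIs, 447 of 1618 cells had Arg1, 16 had Nos2 and 13 had both, where the products of the shares within libraries give 4.46, a ratio of 2.91. By library the ratio was 2.78 in vehicle 1, 1.38 in vehicle 2 and 4.95 in AT38 1. In AT38 2 none of 258 thinned cells had Nos2, which allows a share of up to 1.16%. At 5000 UMIs per cell, a depth chosen after the data were seen, 39 of 43 Nos2 cells had Arg1 and the ratio was 2.14, and in macrophage-like cells alone it was 1.65 at that depth and 2.20 at 1000 UMIs. Vehicle 2 stood at 1.01 at 1000 UMIs and 0.964 at 5000 within macrophage-like cells. There the genes were found together about as often as the product of their shares gives. The other libraries with a value were at 1.58 or higher at these 2 depths. The order of the libraries changed with depth. At 2000 UMIs vehicle 1, vehicle 2, AT38 1 and AT38 2 gave 1.74, 1.44, 3.18 and 0, from 25 Nos2 cells in all. At 500 UMIs they gave 1.27, 2.57, 1.30 and 6.64, from 11. The difference between the ratio of the whole class and that of macrophage-like cells was not tested. In macrophage-like cells, after the highest doublet scores had been removed, the median score was 0.0499 in 71 cells with both genes, 0.0531 with Arg1 only, 0.0605 in 7 cells with Nos2 only and 0.0474 with neither. Their median depths were 15758, 11240, 9550 and 8200 UMIs, and the part of doublets and depth in the unthinned counts was not tested.

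Slc7a2 went with Arg1 in single phagocytes, and its overlap with Nos2 rested on 6 cells. In thinned phagocytes Arg1 and Slc7a2 were found together in 85 cells where the shares give 37.4. That is a ratio of 2.27, which ranged from 2.00 to 2.81 over the 4 libraries. Nos2 was found with Slc7a2 in 6 cells where the shares give 1.32. No such cell was in vehicle 1, and AT38 2 had no thinned cell with Nos2. Both ratios include monocyte-like cells, which had 8.39 Slc7a2 CPM against 163 in macrophage-like cells. The part of that mix in the ratios was not tested. Among macrophage-like cells, those with Arg1 and no Nos2 after thinning had 223 and 250 Slc7a2 CPM with vehicle and 322 and 253 CPM with AT38, and those with neither had 57.7 and 89.0 CPM with vehicle and 66.4 and 175 CPM with AT38. The transporter was higher in the Arg1 cells in 4 of 4 libraries. The 13 cells with both had 508 Slc7a2 CPM when summed over libraries. Ass1, at 120, 59.0, 67.2 and 111 CPM in Arg1 cells and 65.4, 66.9, 78.9 and 75.8 in cells with neither, showed no common direction over vehicle 1, vehicle 2, AT38 1 and AT38 2.

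Other macrophage genes, named after their values were seen, differed between macrophage-like cells with and without Arg1. Chil3, which encodes a chitinase-like protein, was 488, 199, 440 and 275 CPM in macrophage-like cells with Arg1 and 182, 116, 61.5 and 18.9 CPM in cells with neither. Mrc1, the mannose receptor, was lower in the Arg1 cells of all 4 libraries, at 252, 355, 469 and 383 CPM against 508, 445, 565 and 530. C1qa was lower as well, at 921, 1442, 1910 and 1692 CPM against 1407, 1712, 2259 and 2563. The cells with Arg1 thus had less Mrc1 and C1qa but more Chil3 in all 4 libraries.

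With AT38, Arg1 was lower in the macrophages, but the call depended on how the class was drawn and on the settings. In mononuclear phagocytes Arg1 stood at 1671 and 1371 CPM with vehicle and at 715 and 445 CPM with AT38, so the groups did not overlap, as was the case for 40.2% of all genes tested in the class. The log2 change was -1.39 ± 0.24 (SE), with an unadjusted p of 0.00309 and an adjusted p of 0.137 (edgeR quasi-likelihood test, Benjamini-Hochberg over 10724 genes). None of the 8 tested members passed in this class (0, against 2 at an unadjusted p under 0.05 and 1 by DESeq2), where 1.05% of all genes tested passed. In macrophage-like cells alone the change was -1.30 ± 0.19 with an adjusted p of 0.0389, and Arg1 was 1 of 8 members past the threshold in a class where 0.891% of genes passed. For the phagocyte class as a whole the adjusted p of Arg1 ran over its alternatives from 1.57e-18 with no filter on low counts to 0.483 without vehicle 1, and in monocyte-like cells alone it was 0.836. It was 0.226 without vehicle 2, 0.00480 without AT38 1 and 0.0111 without AT38 2.

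Fewer macrophage-like cells had Arg1 with AT38, and those that had it held fewer molecules. The share with at least 1 UMI was 68.0% and 69.7% with vehicle and 41.7% and 41.6% with AT38, and the share with 10 or more was 43.4% and 42.8% against 19.0% and 19.3%. The median in cells with Arg1 was 18 and 16 UMIs with vehicle and 8 and 7 with AT38. After thinning to 1000 UMIs the shares were 45.3% and 49.4% against 23.8% and 21.5%, and in the whole phagocyte class 120 of 333 and 215 of 594 cells against 75 of 433 (17.3%) and 37 of 258 (14.3%), where the unthinned shares were 54.8% and 52.9% against 31.1% and 30.9% and 1 to 7 shallower cells per library were left out. The groups did not overlap on any of these measures, and the exact two-sided permutation p over libraries was 0.33, the smallest that 2 against 2 can give. The same thinned share was 0.601% and 1.84% with vehicle and 1.18% and 0.726% with AT38 in T cells, and it was between 0 and 0.988% in B cells, so the phagocyte shares were above those of classes that should lack the gene, whose median depth was lower (3629.5 UMIs in T cells and 3047 in B cells against 8357 in phagocytes). C1q went the other way in macrophage-like cells, 2679 and 3660 CPM with vehicle and 4990 and 5673 CPM with AT38, and its part in the Arg1 difference was not tested.

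**Figure D3:**
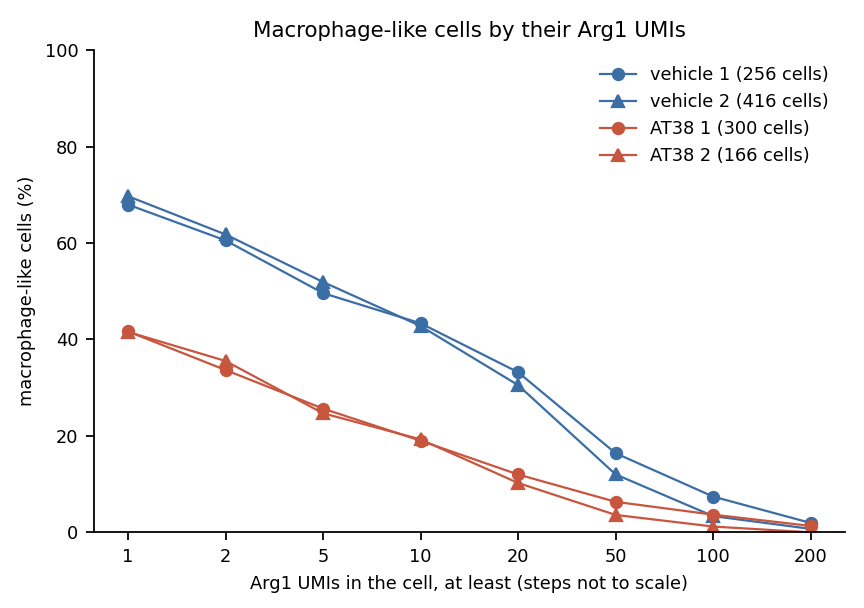
Share of macrophage-like cells (y axis, percent) that held at least the number of Arg1 UMIs on the x axis, in each library; blue vehicle, red AT38. The vehicle libraries lie above both AT38 libraries at 1 to 50 UMIs, with 43.4% and 42.8% against 19.0% and 19.3% at 10 or more.

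In neutrophils 2 of the 7 members tested fell with AT38, Arg1 and Arg2, in a class where 5.25% of all 8418 genes passed, 3.72% downward and 1.53% upward. The libraries of the groups did not overlap for 51.7% of these genes. Ass1 lay under the filter on low counts. Arg2 went from 349 and 325 CPM with vehicle to 251 and 236 CPM with AT38, a log2 change of -0.59 ± 0.09 with an adjusted p of 0.000303 (edgeR). It passed in each of its 14 alternatives, with log2 changes between -0.65 and -0.51. The makeup of the class differed as well. The Arg2-rich cluster led by Rdh12 and Asprv1 was 34.6% and 32.8% of neutrophils with vehicle and 22.0% and 23.1% with AT38. The Arg2-poor cluster led by Siglecf and Rcan1 was 15.9% and 19.2% against 33.0% and 30.9%. With the mix of clusters held fixed, Arg2 was 325 and 303 CPM with vehicle and 282 and 257 CPM with AT38, a ratio of means of 0.858 where the plain CPM gave 0.723. The AT38 libraries stayed below both vehicle libraries at the fixed mix. None of the 14 alternatives held the mix fixed, and the difference at the fixed mix was not tested.

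Arg1 in neutrophils was 30.4 and 29.5 CPM with vehicle and 16.2 and 16.9 CPM with AT38, from 276 UMIs in all, a log2 change of -0.97 ± 0.20 with an adjusted p of 0.00439 (edgeR). This call was lost without vehicle 1 (adjusted p = 0.0665), without vehicle 2 (0.0556) and among neutrophils without any C1q UMI (0.683), an alternative chosen after the data were seen, and the adjusted p over all alternatives ran from 0.000527 to 0.683. In neutrophils without a C1q UMI, Arg1 was 14.8 and 16.8 CPM with vehicle and 17.5 and 10.9 CPM with AT38, which overlapped, for a log2 change of -0.28 ± 0.28. In neutrophils with a C1q UMI it was 103 and 79.2 CPM against 12.1 and 54.0 CPM. So in CPM the groups overlapped in neutrophils without a C1q UMI and were apart in those with one. These levels rested on few cells. Without C1q, 1 cell of AT38 1 held 15 of 33 Arg1 UMIs. With C1q, 1 cell held 31 of 62 in vehicle 2 and 1 held 16 of 17 in AT38 2. Shares of cells with an Arg1 UMI, not thinned, did not overlap in either set. They were 2.67% and 2.83% against 1.80% and 1.09% without C1q. With C1q they were 14.1% and 5.92% against 3.30% and 1.92%. Of the 10 macrophage markers, 2 were detected in 10% of neutrophils or more and none was at 0, with a summed level of 350 and 508 CPM with vehicle and 585 and 351 CPM with AT38. Arg2 kept its call in the neutrophils without a C1q UMI, with a log2 change of -0.51 ± 0.10 and an adjusted p of 0.00151, within 3.37e-07 to 0.0297 over all its alternatives.

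**Figure D4:**
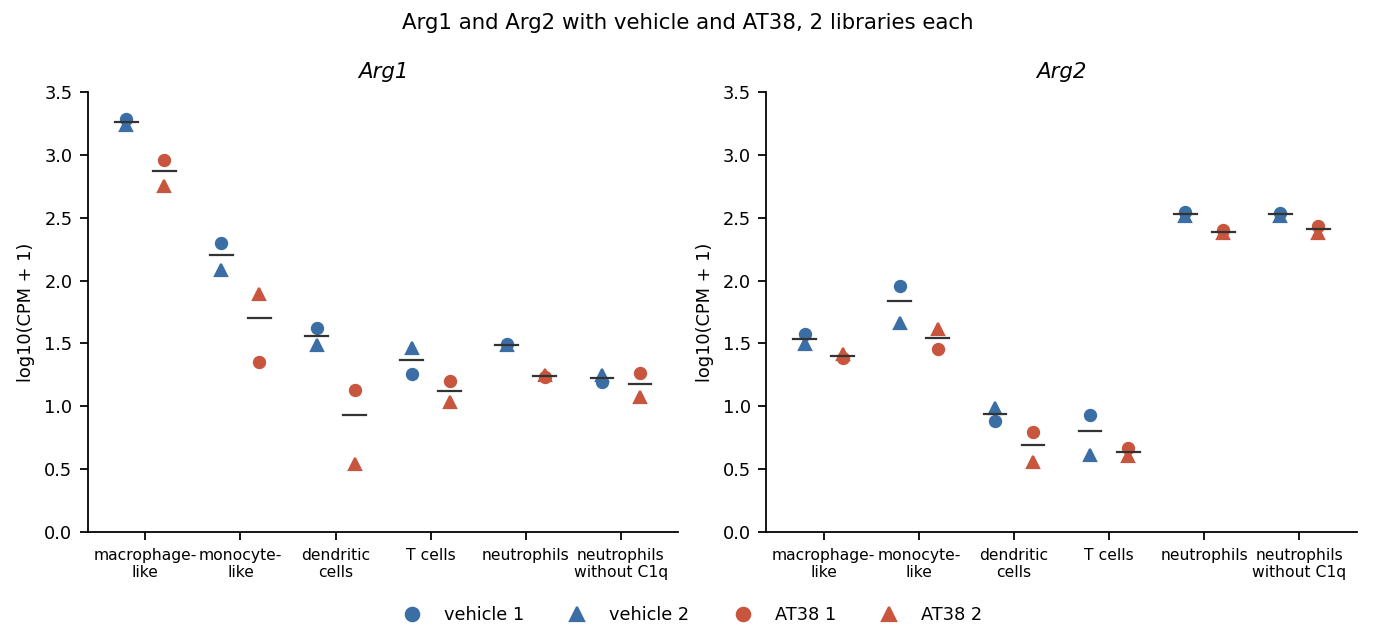
Arg1 (left) and Arg2 (right) as log10(CPM + 1) in 6 sets of cells, vehicle in blue and AT38 in red, with circles and triangles for the libraries and a bar for the mean of the 2 libraries. Arg1 is lower with AT38 in macrophage-like cells, and in neutrophils without a C1q UMI its groups overlap at 10.9 to 17.5 CPM, while Arg2 stays lower with AT38 in both sets of neutrophils.

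Nos2 did not differ beyond the spread between libraries. In mononuclear phagocytes the log2 change was -0.70 ± 0.84 (adjusted p = 0.897, edgeR) and in neutrophils 0.16 ± 0.57 (adjusted p = 0.926), and these standard errors leave both higher and lower levels possible. The thinned share of phagocytes with Nos2 was 5 of 333 and 4 of 594 cells with vehicle and 7 of 433 and 0 of 258 with AT38, the last allowing up to 1.16%, and the unthinned shares were 8.04% and 3.87% against 4.55% and 3.44%. The AT38 minus vehicle difference was -0.279 percentage points for Nos2 (exact permutation p = 1) and -0.226 for cells with both enzymes. Both differences turned positive without vehicle 1 (0.135 and 0.356) and without AT38 2 (0.529 and 0.467).

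No other tested member passed in either myeloid class. In phagocytes Slc7a2 had a log2 change of -0.01 ± 0.14, Ass1 0.07 ± 0.17, Asl -0.14 ± 0.16, Odc1 0.14 ± 0.10 and Gch1 0.08 ± 0.13. In neutrophils Odc1 had 0.19 ± 0.12, Gch1 -0.14 ± 0.14, Asl 0.01 ± 0.29 and Slc7a2 0.14 ± 0.48, where the errors of the last 2 are too wide to show that levels were alike. Ass1 in neutrophils, which was not tested, was 2.86 and 3.66 CPM with vehicle and 2.03 and 1.78 CPM with AT38. Slc7a2 in macrophage-like cells was thus as high with AT38, at 148 and 188 CPM, as with vehicle, at 144 and 173, while Arg1 in the same cells stood at 0.407 of its vehicle level on the fitted scale. Arg2 in phagocytes was 44.5 and 33.4 CPM with vehicle and 24.0 and 29.0 CPM with AT38, a log2 change of -0.55 ± 0.19 that did not pass (adjusted p = 0.297, edgeR).

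Whether the effect of AT38 differed between phagocytes and neutrophils was tested directly. None of the 8 members passed (0 by edgeR, and 0 at an unadjusted p under 0.05), where 1.17% of genes did. For Arg1 the phagocyte change minus the neutrophil change was -0.41 ± 0.22 on the log2 scale (adjusted p = 0.464), and for Arg2 it was 0.03 ± 0.19 (adjusted p = 0.970).

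In the remaining classes no member passed. In dendritic cells Arg1 was lower by -2.10 ± 0.68 on the log2 scale (adjusted p = 0.750, edgeR) and 0 of 7 members passed, against 2 at an unadjusted p under 0.05 and 0 by DESeq2, with 0.00896% of genes called. Arg1 per 100 C1q UMIs was 37.2 and 33.5 with vehicle and 9.18 and 4.68 with AT38 in these cells, and it was lower with AT38 in macrophage-like cells too; the part of free RNA was not tested. Without AT38 1 or without AT38 2, Arg1 was 1 of the members past the threshold in dendritic cells. In T cells 0 of 5 passed (2 unadjusted, 0 by DESeq2, 0.147% of genes called), with Odc1 at 1154 and 1121 CPM with vehicle and 1260 and 1268 CPM with AT38 and Arg1 at -0.88 ± 0.28 (adjusted p = 0.475). In T cells 1 member passed without vehicle 1 (Gch1, higher) and 1 without AT38 1 (Arg1, lower). In B cells 0 of 4 passed (1 unadjusted, 0 by DESeq2, 0.0631% of genes called) and in NK cells 0 of 3 (0 unadjusted, 0 by DESeq2, 0.0188%). In monocyte-like cells 0 of 7 passed, against 3 unadjusted and 0.219% of genes called, and DESeq2 was not run on them. The ILC2-like cells, with 11 to 14 cells per library, were too few to test, and their Arg1 lay higher in both AT38 libraries than in both vehicle libraries.

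The wider pathway was read from lists of 67 genes in all, the members included. In neutrophils the list of arginases and the ornithine branch had 2 of 6 tested genes lower, which are Arg1 and Arg2 themselves, with a median log2 change of -0.28 where that of all genes tested was 0.01, and the Arg1 call was lost in the alternatives given above. Over all neutrophil genes 3.72% were called lower and 1.53% higher, which is the background for this and the next counts. Of 3 tested genes on nitric oxide synthases and their modulators, 1 rose, Nosip, which encodes a protein that binds endothelial nitric oxide synthase, from 9.28 and 8.10 CPM to 19.9 and 16.0 (log2 change 0.94 ± 0.27, adjusted p = 0.0392, edgeR). Of 11 tested polyamine genes 1 fell, the spermine oxidase gene Smox, from 505 and 380 CPM to 334 and 347 (-0.50 ± 0.11, adjusted p = 0.0139). Of 13 tested regulators known to act on Nos2 or Arg1, 2 were higher and 1 lower, with a median log2 change of -0.11. Among them the transcription factor gene Klf4 rose from 65.7 and 46.8 CPM to 91.0 and 82.4 (0.52 ± 0.15, adjusted p = 0.0455). Cebpb, from the same list, fell from 6390 and 6622 CPM to 5687 and 5366 (-0.36 ± 0.08, adjusted p = 0.00500, edgeR). The other regulator called higher is not named here. Links between these regulators and the members were not tested. None of 6 transport and recycling genes and none of 5 tetrahydrobiopterin genes passed. In mononuclear phagocytes none of the genes tested on these lists passed. Among the smallest p there after that of Arg1 were those of Sat1, which encodes an enzyme of polyamine breakdown, at 483 and 549 CPM with vehicle and 623 and 738 CPM with AT38 (0.40 ± 0.12, adjusted p = 0.224), and of Hif1a, at 610 and 611 CPM with vehicle and 498 and 499 CPM with AT38 (-0.29 ± 0.09, adjusted p = 0.275).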

How the data were processed

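Single-cell RNA was measured in 4 pooled libraries with a 3′ droplet kit, per the labels. The deposited values are raw UMI counts per gene and barcode, which the authors obtained from Cell Ranger 3.1.0 on mm10, per the submitters' processing notes; the annotation release is not given in the sources used here. The lowest deposited barcode has 500 UMIs. The members and lists were chosen with earlier results of these data known.

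Barcodes were kept from 200 genes and 500 UMIs upwards if no more than 10% of UMIs were mitochondrial, and the top scores of scrublet (scanpy 1.11.5) were removed as doublets at 0.8% of barcodes per 1000 barcodes, 749 in all, since the automatic threshold called 8. Counts were scaled to 10000 per cell, and 1986 variable genes, without 14 that are members or pathway genes, gave 30 components, 15 neighbours and 27 Leiden clusters at resolution 1. A cluster took the name of the marker list with the highest score if at least 3 markers were detected in 10% of its cells. Clusters led by proliferation genes, or with markers of other classes among their 10 leading genes, stayed unnamed. A further rule, on T cell genes, left the shallow cluster of 407 cells unnamed although it scored highest for macrophage markers. Its T cell markers lay on average more than 2 above the median cluster in log2 CPM. The naming rules were settled after the clusters had been seen, and other rules could give other classes. Cells of one class come from 4 libraries, and nothing was integrated.

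UMIs were summed per library and class and tested with edgeR 4.0.16 (TMM, filterByExpr, robust quasi-likelihood, two-sided, R 4.3.3), with Benjamini-Hochberg adjustment over all genes tested in the class at 0.05. Classes with 20 cells in every library were tested. DESeq2 1.42.0, other filters, other clusterings, single libraries left out and a replicate block were alternatives. The difference of effects between classes came from 1 fit over both classes with a term per library. For shares, each cell was thinned to 1000 UMIs without replacement, shallower cells left out. The limit of a count of 0 is 3 counts and covers counting error only. Errors of log2 changes are standard errors. On simulated data with 100 genes changed by each size, the test recovered 73% of log2 changes of 1 and 96% of changes of 2 in phagocytes, and 81% and 95% in neutrophils. Positions are from GENCODE M21 by gene ID. All 8 members were named whatever their values; from the lists, genes past the threshold and some of those with the smallest p were named, though not all of either, and for likeness the 3 genes with the highest correlation among those with a mean of 10 CPM in a class. Reads of overlapping genes on the opposite strand (Arg2, Slc7a2) were not separated here beyond the authors' counting. Some results from the lists are not reported here.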

Additional observations from a re-analysis of the deposited data

How the results depend on the processing

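Numbers of members past the threshold depended most on the phagocyte class. There it was 1 with DESeq2, at 20% mitochondrial maximum, without doublet removal, with macrophage-like clusters alone, with the replicate block and with the shallow unnamed cluster added (chosen after the data were seen), 2 with no filter on low counts, and 0 to 1 with single libraries left out; it stayed at 0 with at least 500 genes, at Leiden resolution 0.5, with the members among the variable genes and in monocyte-like clusters alone. In neutrophils it was 1 with DESeq2, whose adjusted p for Arg1 was not available, 1 without C1q UMIs (also chosen after the data were seen), and 1 to 2 with single libraries left out. In dendritic cells it was 0 to 1 and in T cells 0 to 1 with single libraries left out, 1 in T cells at 20% mitochondrial maximum and without doublet removal, and 1 in NK cells with no filter. In B cells, and for the difference of effects, it was 0 under all 12 and 8 alternatives. The causes were not tested. Over all genes, calls numbered 442 in neutrophils (228 with DESeq2, 121 without vehicle 1, 202 without vehicle 2), 113 in phagocytes (47 without vehicle 1 to 402 with no filter), 1 in dendritic cells (up to 235 without AT38 1), 5 in B cells (3 to 84), 14 in T cells (3 to 84), 1 in NK cells (up to 20) and 125 for the difference of effects (75 to 283). The AT38 minus vehicle share of phagocytes with Nos2 reversed to 0.400 percentage points at 500 UMIs per cell and 0.149 without doublet removal, and ran from -1.09 to 0.529 with single libraries left out; for both genes it ran from -0.919 to 0.467. In neutrophils the Nos2 share reversed to 0.136 with the members among the variable genes and ran from -0.420 to 0.0542 with single libraries left out. The shares with Arg1 stayed lower with AT38 in all alternatives. The ratio of co-detection, 2.91 in the report, lay between 2.00 and 2.68 in its 6 alternatives, and at other depths it was as low as 1.54 in macrophage-like cells alone (not thinned). The replicate numbers did not pair the libraries (correlations of deviations from -0.0220 to 0.180), and the replicate block changed no call other than that of Arg1 in phagocytes (adjusted p = 3.91e-05, 1 member past the threshold), against 2 in neutrophils and 0 elsewhere. Depth limits what can be said of Nos2, which 16 thinned phagocytes held.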
